A study of Homo sapiens with 6 samples.

Results

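The transcripts of 9 chemokines that attract neutrophils, monocytes or lymphocytes, CXCL1, CXCL2, CXCL3, CXCL5, CXCL8, CXCL16, CCL2, CCL5 and CCL20, were examined in MDA-MB-231 cells that overexpressed the noncoding RNA RPPH1. They were chosen by symbol as known leukocyte attractants, with earlier results of these data known, and all 9 were among the 17088 genes listed. MDA-MB-231 is an established human triple-negative breast cancer line. VecNC cells were the controls and VecRPPH1 cells overexpressed RPPH1, the RNA subunit of RNase P, with 3 RNA sequencing libraries each and no other treatment given in the labels. Each library held 17603126 to 18817269 fragments. The labels did not describe the vector, and did not state whether replicates came from separate cultures or whether a group was 1 clone. The p-values therefore set the difference between the groups against the scatter of these libraries, and that scatter may be technical. Libraries were made with an mRNA kit, RPPH1 lacks a poly(A) tail. The level of RPPH1 was not analysed here, and the labels therefore have no check from the targeted RNA.

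Chemokines are small secreted proteins that bind G protein-coupled receptors on leukocytes and direct their migration. CXCL1, CXCL2, CXCL3, CXCL5 and CXCL8 carry a Glu-Leu-Arg (ELR) motif before their paired cysteines and draw neutrophils through CXCR2, with CXCL8 also acting on CXCR1. CCL2 draws monocytes through CCR2, CCL5 draws T cells and monocytes, CCL20 acts on CCR6, and CXCL16 is made as a transmembrane protein that is shed and binds CXCR6. Transcription of many of these genes is driven by NF-kB, with AP-1 and C/EBP factors as partners, and tumour cells with active NF-kB signalling are known to make them.

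The 5 ELR genes lie in a single cluster on chromosome 4 of GRCh38 that spans 358788 bases from CXCL8 to CXCL2 (GENCODE 29). CXCL8 occupies 73740506 to 73743716 and CXCL1 73869393 to 73871242, both on the plus strand. CXCL5 (73995642 to 73998779), CXCL3 (74036589 to 74038807) and CXCL2 (74097035 to 74099293) lie on the minus strand. CXCL16 (4733526 to 4739922), CCL2 (34255218 to 34257203) and CCL5 (35871491 to 35880793) are on chromosome 17, and CCL20 (227805739 to 227817564) is on chromosome 2. The promoter windows of the ELR genes are shown because some of the fits below, though not all, called CXCL8. Its cluster neighbours CXCL1, CXCL2 and CXCL3, which also had lower means, were a further reason. Each window runs from 250 bases before to 50 bases after the RefSeq start site (GRCh38.p14), 5′ to 3′, and the capitals mark the κB motif GGAATTTCC of the RelA type.
CXCL8 (chr4:73740319-73740618, plus strand): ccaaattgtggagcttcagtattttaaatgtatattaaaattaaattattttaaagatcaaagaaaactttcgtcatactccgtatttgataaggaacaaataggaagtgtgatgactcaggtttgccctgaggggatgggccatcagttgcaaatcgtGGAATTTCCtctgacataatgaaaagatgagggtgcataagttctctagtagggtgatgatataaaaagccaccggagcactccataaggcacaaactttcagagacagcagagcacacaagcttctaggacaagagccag
CXCL1 (chr4:73869143-73869442, plus strand): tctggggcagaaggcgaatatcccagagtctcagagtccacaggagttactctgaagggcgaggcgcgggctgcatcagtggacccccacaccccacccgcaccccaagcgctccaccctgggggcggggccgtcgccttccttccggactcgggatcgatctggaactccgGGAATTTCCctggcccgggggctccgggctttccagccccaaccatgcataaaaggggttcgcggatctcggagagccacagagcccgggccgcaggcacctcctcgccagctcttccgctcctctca
CXCL2 (chr4:74099146-74099445, minus strand): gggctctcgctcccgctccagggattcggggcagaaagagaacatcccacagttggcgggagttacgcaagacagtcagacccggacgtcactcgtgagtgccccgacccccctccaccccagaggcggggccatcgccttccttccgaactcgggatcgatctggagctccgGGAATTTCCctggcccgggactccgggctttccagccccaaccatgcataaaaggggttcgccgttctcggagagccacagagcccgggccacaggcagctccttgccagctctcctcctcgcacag
CXCL3 (chr4:74038640-74038939, minus strand): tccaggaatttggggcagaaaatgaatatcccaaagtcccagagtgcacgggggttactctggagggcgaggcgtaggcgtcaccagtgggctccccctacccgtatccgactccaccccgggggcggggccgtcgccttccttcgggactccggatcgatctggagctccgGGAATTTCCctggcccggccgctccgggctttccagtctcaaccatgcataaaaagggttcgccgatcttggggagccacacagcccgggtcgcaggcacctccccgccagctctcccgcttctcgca
CXCL5 (chr4:73998628-73998927, minus strand): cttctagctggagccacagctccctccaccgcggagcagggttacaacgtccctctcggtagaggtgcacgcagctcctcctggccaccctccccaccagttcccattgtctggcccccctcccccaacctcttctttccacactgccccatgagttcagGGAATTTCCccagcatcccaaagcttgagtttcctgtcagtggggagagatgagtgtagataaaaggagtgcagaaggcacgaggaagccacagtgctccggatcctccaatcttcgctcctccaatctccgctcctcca

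All 5 ELR windows held GGAATTTCC, on the strand of transcription, with its first base 77 to 91 bases before the start site. Of 35116 RefSeq windows of the same length, 162 held this motif on either strand, or 0.461%. A more general κB motif, GGG and CC separated by any 5 bases, which can overlap GGAATTTCC, was searched on both strands too. It was in the windows of all 6 members found in the table, the ELR genes and CCL20, and in 58.7% of all windows. CXCL8 alone of the 6 held the AP-1 motif TGANTCA, whose first base lay 137 bases before the start site, against 7.71% of all windows. The TATA motif TATAAA was found in CXCL8 and CCL20 and in 11.5% of all windows. Entries for CXCL16, CCL2 and CCL5 were not found. In pairwise global alignment the CXCL1 and CXCL3 windows were identical in 82.5% of alignment columns, CXCL2 matched CXCL1 in 71.9% and CXCL3 in 73.8%, and CXCL8 matched CXCL1 in 45.2%. A match describes the letters in these windows, and binding was not measured.

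**Figure D1:**
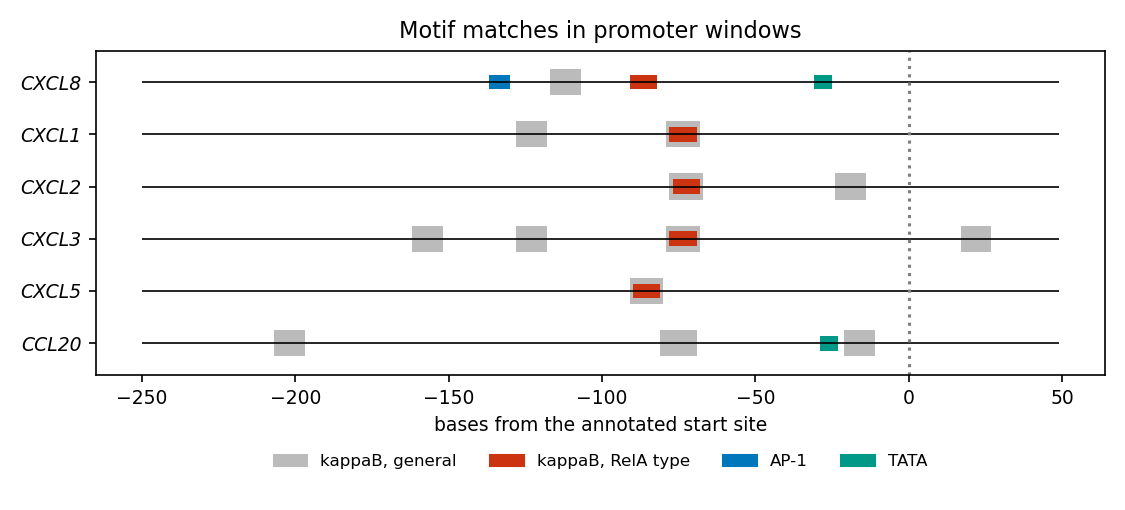
Positions of motif matches in the promoter windows of 6 chemokine genes, in bases from the annotated start site (dotted line); grey boxes are the general κB motif, red boxes GGAATTTCC, blue TGANTCA and green TATAAA, on either strand. The red boxes of the 5 ELR genes start 77 to 91 bases before the start site, and CCL20 has none.

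The 9 transcripts ranged from among the most abundant of the cells to barely detected. Levels are in FPKM, fragment counts scaled by gene length and by library size, so genes can be set side by side; means are given ± SD with n = 3 per group. In VecNC cells the order was CXCL8 (392 ± 13.4 FPKM), CXCL1 (304 ± 12.1 FPKM), CXCL3 (43.4 ± 4.05 FPKM), CXCL2 (39.0 ± 5.03 FPKM), CCL2 (14.3 ± 0.871 FPKM), CCL20 (0.997 ± 0.0912 FPKM), CXCL16 (0.685 ± 0.0379 FPKM), CCL5 (0.586 ± 0.159 FPKM) and CXCL5 (0.260 ± 0.0291 FPKM). CXCL8 and CXCL1 ranked 102 and 131 by mean FPKM among the 17088 genes. The libraries of CXCL3 and CXCL2 overlapped, and so did those of CXCL16 and CCL5, while the other neighbours in this order did not overlap. Within every one of the 6 libraries CXCL3 exceeded CXCL2, with a CXCL2 to CXCL3 ratio of 0.842 to 0.944 in VecNC and 0.828 to 0.882 in VecRPPH1. In VecRPPH1 cells the order was the same except that CCL5 stood above CXCL16, and CCL20, CCL5 and CXCL16 overlapped, as did CXCL16 and CXCL5. CXCL3 and CXCL2 did not overlap there.

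**Figure D2:**
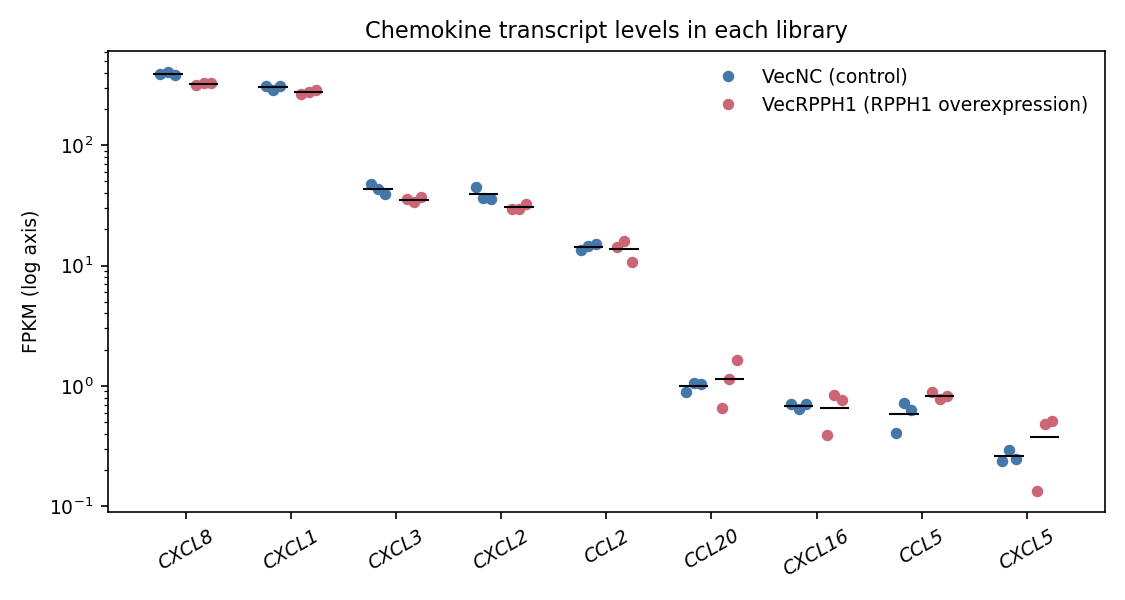
FPKM of the 9 chemokine transcripts on a log axis, with 1 point per library (blue VecNC, red VecRPPH1) and a black line at each group mean, ordered by the VecNC mean. CXCL8 and CXCL1 lie near 300 FPKM and above in VecNC, and the 3 VecRPPH1 libraries of CXCL8, CXCL1, CXCL3 and CXCL2 lie below the 3 VecNC libraries.

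The ELR chemokines made up nearly all of the chemokine message in both groups. The 9 transcripts summed to 785 to 807 FPKM in the VecNC libraries and 668 to 699 FPKM in the VecRPPH1 libraries, a difference of the means of -14.0%. The sums of the 2 groups did not overlap. The ELR genes held 97.9% ± 0.164 of the sum in VecNC and 97.6% ± 0.372 in VecRPPH1. CXCL8 alone held 49.3% ± 1.74 and 47.4% ± 0.325, and CXCL1 38.2% ± 1.54 and 40.5% ± 0.410. The share of CXCL1 was higher, and that of CXCL8 lower, in every VecRPPH1 library than in every VecNC library (36.5% to 39.4% against 40.2% to 41.0% for CXCL1, and 47.9% to 51.3% against 47.1% to 47.6% for CXCL8). Shares of the same sum depend on one another, so these are not 2 separate results. The mean FPKM of CXCL1 itself was lower in VecRPPH1, with a difference of -8.80%.

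Of the ELR chemokines, CXCL8, CXCL1, CXCL2 and CXCL3 had lower levels in all VecRPPH1 libraries than in any VecNC library. In bulk RNA, fewer cells that make a transcript and less of it per cell cannot be told apart. Such complete separation in the lower direction was seen in 5.88% of the 10909 genes tested, and a lower mean in 47.7%. The test was limma on log2(FPKM + 1) over all genes that reached 1 FPKM in 3 or more libraries, with Benjamini-Hochberg adjustment over all of them and a threshold of 0.05, and 6 of the 9 chemokine genes passed that filter. By this test 1 gene in all was called lower (0.00917%) and 0 higher, and no chemokine gene was called. At an unadjusted p under 0.05, 401 genes were lower (3.68%) and 468 higher (4.29%), and the lower ones held CXCL8, CXCL1, CXCL2 and CXCL3. By limma-voom on fragments recovered from the FPKM values, 11 genes were called lower (0.101%), CXCL8 among them, and 6 higher (0.055%). Without adjustment, voom gave 4.68% lower, the same 4 chemokine genes among them, and 3.83% higher, with 0 of the chemokine genes. Fold changes on the log2(FPKM + 1) scale understate changes of genes at low levels.

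CXCL8, the neutrophil attractant also known as interleukin 8, was at 386, 408 and 383 FPKM in VecNC replicates 1, 2 and 3, and at 318, 326 and 329 FPKM in VecRPPH1 replicates 1, 2 and 3. The highest VecRPPH1 library was thus well below the lowest VecNC library, and the replicates of each group lay close together. The log2 fold change was -0.27 with an SE of 0.0353 and a 95% confidence interval of -0.35 to -0.19. The limma adjusted p of 0.0507 missed the threshold, and the voom adjusted p was 0.000777 with a log2 fold change of -0.28. Of the genes tested, 0.403% had a fold change as low as that of CXCL8 or lower. The values rest on 11539 to 12189 fragments per VecNC library and 9509 to 9617 per VecRPPH1 library. Counting alone would give a coefficient of variation of 0.917% and 1.02%, and the replicates varied by 3.402% and 1.734%. With 1 library left out at a time, the limma adjusted p ranged from 0.0444 without VecNC replicate 1 to 0.363, and the log2 fold change from -0.29 to -0.25.

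CXCL1 was the other abundant ELR transcript and was called by neither fit. It was at 313, 290 and 309 FPKM in VecNC replicates 1, 2 and 3, and at 269, 276 and 286 FPKM in VecRPPH1 replicates 1, 2 and 3. The groups did not overlap, but the closest libraries, VecNC replicate 2 and VecRPPH1 replicate 3, were only 290 and 286 FPKM. The log2 fold change was -0.13 with an SE of 0.0402 and a 95% confidence interval of -0.22 to -0.04 (limma adjusted p 0.465, voom adjusted p 0.228). This interval overlaps that of CXCL8, and the difference between the fold changes of CXCL1 and CXCL8 was not tested. The ratio of CXCL8 to CXCL1 was 1.24 to 1.41 in VecNC and 1.15 to 1.18 in VecRPPH1 libraries. This ratio, chosen after its values were seen, did not overlap between the groups, and 3 against 3 libraries cannot give an exact two-sided permutation p below 0.1.

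CXCL2 and CXCL3, close relatives of CXCL1 that act on the same receptor, were about an order of magnitude lower than CXCL1. CXCL2 was at 44.8, 36.7 and 35.5 FPKM in VecNC replicates 1, 2 and 3, and at 29.4, 29.6 and 32.2 FPKM in VecRPPH1 replicates 1, 2 and 3. VecNC replicate 1 stood above the other controls and widened the spread. The log2 fold change was -0.34 with an SE of 0.0791 and a 95% confidence interval of -0.52 to -0.16 (limma adjusted p 0.320, voom adjusted p 0.132), and -0.24 without VecNC replicate 1. CXCL3 was at 47.4, 43.6 and 39.3 FPKM in VecNC replicates 1, 2 and 3, and at 35.6, 33.6 and 36.9 FPKM in VecRPPH1 replicates 1, 2 and 3. Its groups did not overlap, and its log2 fold change was -0.29 with an SE of 0.0656 and a 95% confidence interval of -0.43 to -0.14 (limma adjusted p 0.320, voom adjusted p 0.145). CXCL2 and CXCL3 were again highest in VecNC replicate 1, the library that stood apart on the first principal component of all tested genes (-10.9 against -0.107 to 4.40 for the others).

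The related sequences of CXCL1, CXCL2 and CXCL3 may make their separate levels uncertain, and whether they did was not tested. Of all windows of 50 bases in the longest coding transcript, 5.73% of those of CXCL1, 9.24% of those of CXCL2 and 5.26% of those of CXCL3 occurred in another ELR transcript or in CXCL6, while no window of 100 bases did. CXCL8 and CXCL5 shared no window of 50 bases. The sources used here did not give the read length or how reads shared between genes were assigned.

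**Figure D3:**
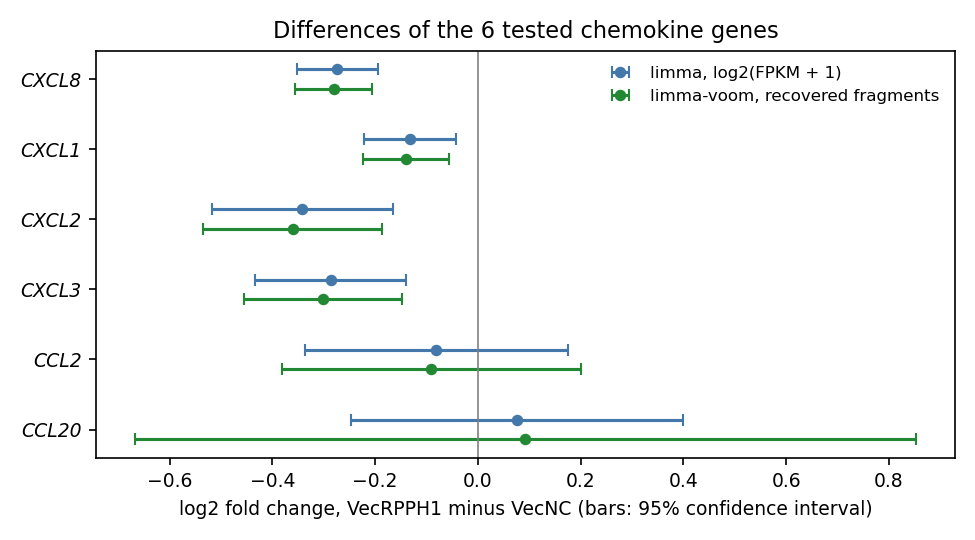
Log2 fold change of VecRPPH1 against VecNC with its 95% confidence interval for the 6 tested chemokine genes, by limma on log2(FPKM + 1) in blue and by limma-voom on recovered fragments in green. The intervals of CXCL8, CXCL1, CXCL2 and CXCL3 lie below 0 in both fits, those of CCL2 and CCL20 include 0, and the CCL20 interval is widest by voom (-0.67 to 0.85).

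The monocyte attractant CCL2 did not differ beyond the spread of its libraries. It was at 13.3, 14.6 and 15.0 FPKM in VecNC replicates 1, 2 and 3, and at 14.2, 16.0 and 10.7 FPKM in VecRPPH1 replicates 1, 2 and 3. VecRPPH1 held both the highest and the lowest library, so the groups overlapped. The log2 fold change was -0.08 with a 95% confidence interval of -0.34 to 0.17 (limma adjusted p 0.893), and 0.07 without VecRPPH1 replicate 3. The interval leaves room for a difference as large as that of CXCL8, and the difference between the 2 genes' fold changes was not tested. CCL2 had 140 to 213 fragments per library, where counting alone gives a coefficient of variation of 7.15% in VecNC and 7.42% in VecRPPH1, against 6.09% and 19.6% between replicates.

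CCL20, CXCL16, CCL5 and CXCL5 were near the limit of what this depth resolves. CCL20, an attractant of CCR6-bearing lymphocytes and dendritic cells, had 14, 16 and 16 fragments in VecNC replicates 1, 2 and 3, and 10, 17 and 24 in VecRPPH1 replicates 1, 2 and 3. Its log2 fold change was 0.08 with a 95% confidence interval of -0.25 to 0.40 (limma adjusted p 0.925), and -0.09 without VecRPPH1 replicate 3. The remaining 3 genes did not reach the 1 FPKM filter and entered no test that used it. The neutrophil attractant CXCL5 had 11, 13 and 11 fragments in VecNC replicates 1, 2 and 3, and 6, 21 and 22 in VecRPPH1 replicates 1, 2 and 3. The VecRPPH1 libraries thus lay on both sides of the controls, and the exact Poisson 95% interval of VecRPPH1 replicate 1 (0.0495 to 0.293 FPKM) did not reach that of replicate 2 (0.297 to 0.734 FPKM); these intervals cover counting error only. CXCL16 had 32, 28 and 31 fragments in VecNC replicates 1, 2 and 3, and 17, 36 and 32 in VecRPPH1 replicates 1, 2 and 3. VecRPPH1 replicate 1 was the lowest library for CXCL5, CXCL16 and CCL20 alike. CCL5 had 10, 17 and 15 fragments in VecNC replicates 1, 2 and 3, and 21, 18 and 19 in VecRPPH1 replicates 1, 2 and 3. Every VecRPPH1 library of CCL5 was above every VecNC library, a pattern found in 7.98% of the tested genes. CCL5 is not among the tested genes, and the share among genes at its low level was not computed. The counting intervals of its nearest libraries overlapped (0.419 to 1.15 FPKM in VecNC replicate 2 and 0.457 to 1.22 FPKM in VecRPPH1 replicate 2). Fitted without a filter on low values, CCL5 had a log2 fold change of 0.21 with a 95% confidence interval of 0.03 to 0.39 and a limma adjusted p of 0.620.

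Some leukocyte and fibroblast marker genes had more fragments in VecRPPH1 replicates 2 and 3, and most did not. Of 22 listed markers, 5 had more fragments in both of these libraries than in any other, namely PTPRC, ITGAM, FCER1G, COL3A1 and DCN; the share of all genes with this pattern was not computed. PTPRC, the pan-leukocyte antigen CD45, had 4, 9 and 4 fragments in VecNC replicates 1, 2 and 3, and 3, 18 and 15 in VecRPPH1 replicates 1, 2 and 3. COL3A1, a fibrillar collagen chain of fibroblasts, had 12, 16 and 15 fragments in VecNC and 13, 49 and 34 in VecRPPH1 replicates 1, 2 and 3. The 15 listed leukocyte markers summed to 3.98 to 5.38 FPKM in VecNC and 4.91 to 7.44 FPKM in VecRPPH1, and the 7 fibroblast markers to 5.02 to 5.41 FPKM and 5.14 to 6.55 FPKM. The leukocyte marker LYZ was highest in VecNC replicate 3, with 31 fragments against 9 in each of VecRPPH1 replicates 2 and 3. The fibroblast markers together had 549, 524 and 575 fragments in VecNC and 542, 671 and 557 in VecRPPH1 replicates 1, 2 and 3. NKG7 was listed at 0 in all libraries, and CD3E had at most 2 fragments. The 5 endothelial markers summed to 1.96 to 2.12 FPKM and 1.99 to 2.42 FPKM. CD14, a monocyte marker and 1 of 2 leukocyte markers that passed the filter, was at 2.30 ± 0.241 FPKM and 3.23 ± 0.204 FPKM (limma adjusted p 0.306). It was at 3.08, 3.14 and 3.46 FPKM in VecRPPH1 replicates 1, 2 and 3, each above every VecNC library. Its higher level thus included VecRPPH1 replicate 1, and such separation was seen in 7.98% of the tested genes. The other of the 2, CSF1R, was at 1.14 ± 0.278 FPKM and 1.08 ± 0.223 FPKM. CXCL5 was high in both VecRPPH1 replicates 2 and 3, and the part of these markers in its values was not tested. CXCL8 and CXCL1 were also somewhat higher in VecRPPH1 replicates 2 and 3 than in replicate 1, though below every control. With replicates 2 and 3 left out, an alternative added after seeing the data that rests on 1 VecRPPH1 library, the log2 fold changes were -0.30 for CXCL8, -0.18 for CXCL1, -0.39 for CXCL2 and -0.28 for CXCL3. Of the markers of the line, the 5 known to be high (VIM, CD44, AXL, MSN and CAV1) summed to 3451 to 3534 FPKM in VecNC and 3351 to 3400 FPKM in VecRPPH1. Most of this sum was VIM, at 2699 ± 38.3 FPKM in VecNC and 2599 ± 21.9 FPKM in VecRPPH1. Of the 5, 3 had lower and 2 higher means in VecRPPH1, and 0 were called by limma or voom. Of the luminal and epithelial markers listed as low, ESR1 and CDH1 were under 1 FPKM in every library. ERBB2 was at 12.0 ± 0.608 FPKM in VecNC and 12.4 ± 0.354 FPKM in VecRPPH1, and EPCAM at 6.86 ± 0.327 FPKM and 6.71 ± 0.560 FPKM, so these 2 were not absent.

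**Figure D4:**
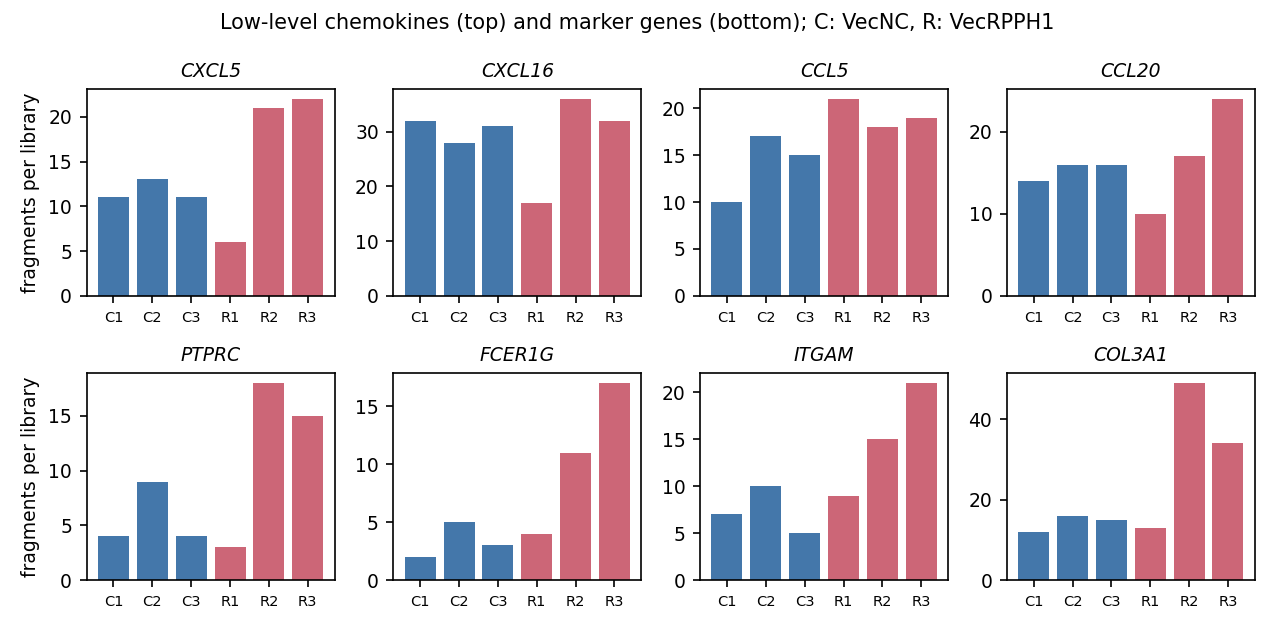
Fragments per library of the 4 chemokine genes at low levels (top row) and of 4 marker genes chosen after their values were seen (bottom row), with bars for VecNC replicates 1 to 3 (C1 to C3, blue) and VecRPPH1 replicates 1 to 3 (R1 to R3, red). CXCL5 has 21 and 22 fragments in R2 and R3 against 6 to 13 elsewhere, and PTPRC has 18 and 15 against 3 to 9.

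Other chemokines and the receptors of these ligands were scarcely represented. Of 39 other chemokine genes, 24 were listed, 4 of them at 0 in all libraries, and 2 passed the filter, CXCL11 and CCL3L3, with 0 called by limma or voom. CXCL11, an interferon-induced attractant of T cells, was at 2.23 ± 0.362 FPKM in VecNC and 2.61 ± 0.466 FPKM in VecRPPH1. CCL3L3 was at 0.691 ± 0.456 FPKM and 0.922 ± 0.526 FPKM, and it is a near copy of CCL3, so its level is uncertain. CXCL6, another ELR gene of the chromosome 4 cluster, had 4, 3 and 2 fragments in VecNC replicates 1, 2 and 3, and 1, 0 and 1 in VecRPPH1 replicates 1, 2 and 3. The 8 listed receptors summed to 0.275 to 0.374 FPKM in VecNC and 0.274 to 0.378 FPKM in VecRPPH1. CXCR2 had at most 1 fragment in a library, and CXCR1 had 1 fragment in VecRPPH1 replicate 1 and 0 in every other library. ADAM10 and ADAM17, the proteases that shed CXCL16, were at 15.1 ± 0.650 FPKM and 20.1 ± 1.85 FPKM in VecNC, and at 15.8 ± 0.453 FPKM and 20.3 ± 0.296 FPKM in VecRPPH1, with limma adjusted p of 0.804 and 0.9502. All 6 heparan sulphate proteoglycan genes, whose products hold chemokines at cell surfaces, had lower means in VecRPPH1, as did 47.7% of all tested genes. Their median log2 fold change was -0.05, and 0 were called by limma or voom. GPC1 was at 5.29 ± 0.480 FPKM in VecNC and 4.55 ± 0.218 FPKM in VecRPPH1 (limma adjusted p 0.573).

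Of other genes under NF-kB control, cytokines and feedback inhibitors mostly had lower means, and 1 of them, TNFAIP3, was called by voom. Over all tested genes the median log2 fold change was 0.0046 and 47.7% had lower means. Of 12 tested cytokine and growth factor genes, 10 had lower means, at a median of -0.11 on the log2 scale, and 0 were called by limma or voom. CSF2, which encodes the granulocyte and macrophage growth factor GM-CSF, was at 61.8, 68.0 and 68.6 FPKM in VecNC replicates 1, 2 and 3, and at 52.0, 53.3 and 56.3 FPKM in VecRPPH1 replicates 1, 2 and 3 (limma adjusted p 0.182, voom adjusted p 0.0833). The groups of CSF2 did not overlap. IL32, a proinflammatory cytokine gene, was at 18.97 ± 1.90 FPKM and 15.2 ± 0.592 FPKM, and IL1A, which encodes interleukin 1 alpha, an inducer of CXCL8, at 4.79 ± 0.601 FPKM and 3.59 ± 0.543 FPKM. Of 8 NF-kB subunit and IKK genes, 6 had lower means, with a median of -0.05 and 0 called by either fit. RELA, the subunit that gives the κB motif above its name, was at 46.2 ± 0.991 FPKM in VecNC and 43.8 ± 1.03 FPKM in VecRPPH1 (limma adjusted p 0.668). Of 11 feedback inhibitors and IkB genes, 9 had lower means, with a median of -0.05, 0 called by limma and 1 called lower by voom. That gene was TNFAIP3, whose product A20 ends NF-kB signalling, at 17.4, 17.2 and 16.99 FPKM in VecNC replicates 1, 2 and 3, and at 13.6, 12.8 and 13.8 FPKM in VecRPPH1 replicates 1, 2 and 3 (voom adjusted p 0.00088, limma adjusted p 0.0604). BIRC3, an inhibitor of apoptosis induced by NF-kB, was at 42.6 ± 1.69 FPKM and 37.5 ± 1.06 FPKM.

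No gene upstream of NF-kB, of its transcriptional partners or of the factors of mRNA decay was called. Of 22 tested receptor and adaptor genes, 9 had lower and 13 higher means, at a median of 0.03 on the log2 scale, with 0 called by limma or voom. IRAK2, a kinase of interleukin 1 signalling, had the smallest p of these, at 13.96 ± 0.592 FPKM in VecNC and 12.2 ± 0.301 FPKM in VecRPPH1 (limma adjusted p 0.398). Of 10 tested AP-1 and C/EBP genes, 3 had lower and 7 higher means, with a median of 0.02 and 0 called by either fit. The AP-1 subunit gene FOSL2 was at 55.9 ± 2.09 FPKM and 61.02 ± 0.823 FPKM (limma adjusted p 0.467), and FOSL1 at 205 ± 6.24 FPKM and 195 ± 2.85 FPKM (limma adjusted p 0.668). Of 11 genes for proteins that destabilise or protect AU-rich and stem-loop mRNAs, 5 had lower and 6 higher means, with a median of 0.0090 and 0 called by either fit. ZFP36L1, which promotes decay of AU-rich mRNAs, was at 90.7 ± 2.94 FPKM and 83.2 ± 1.62 FPKM (limma adjusted p 0.465).

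Around the chromosome 4 cluster, other tested genes gave no call by limma or voom. Within 1000000 bases on either side, 16 other protein-coding genes are annotated, 14 were listed and 5 passed the filter. Of these 5, 3 had lower means and 0 had an unadjusted limma p under 0.05. AREG, an epidermal growth factor receptor ligand gene beyond CXCL2, was at 10.6 ± 2.22 FPKM in VecNC and 11.6 ± 1.73 FPKM in VecRPPH1 (limma adjusted p 0.846). MTHFD2L, a mitochondrial folate enzyme gene next to CXCL2, was at 1.68 ± 0.240 FPKM and 1.95 ± 0.0951 FPKM (limma adjusted p 0.691). Whether the fold changes of the ELR genes differ from those of these neighbours was not tested.

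MMP1, ADAMTS9, CDKN1A and CSF2 were among the 5 genes whose profile over the 6 libraries was most like that of CXCL8. Likeness was the root mean square difference, over the 6 libraries, of log2(FPKM + 1) after subtraction of each gene's VecNC mean, among 5890 other genes with a mean of at least 10 FPKM. It was 0.0371 for MMP1, 0.0401 for ADAMTS9, 0.0429 for CDKN1A and 0.0527 for CSF2, in log2 units. MMP1 encodes an interstitial collagenase, ADAMTS9 a matrix protease and CDKN1A a cyclin-dependent kinase inhibitor. MMP1 was at 948, 921 and 894 FPKM in VecNC replicates 1, 2 and 3, and at 753, 782 and 767 FPKM in VecRPPH1 replicates 1, 2 and 3 (limma adjusted p 0.0507). The groups of MMP1 did not overlap. No gene was called by limma without VecNC replicate 2 or 3, or without VecRPPH1 replicate 1 or 2. Voom called MMP1, ADAMTS9 and CDKN1A lower, with adjusted p of 0.000436, 0.0355 and 0.0186. Of the chemokine genes, CXCL3 was nearest to CXCL8 (0.0866), followed by CXCL1 (0.118), CXCL2 (0.126) and CCL2 (0.220). In that order CXCL3 would take place 25 and CCL2 place 3679 among the 5890 genes. The profile of CXCL8 is flat within each group, so genes with small replicate spread and a similar difference between groups come first by this measure.

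**Figure D5:**
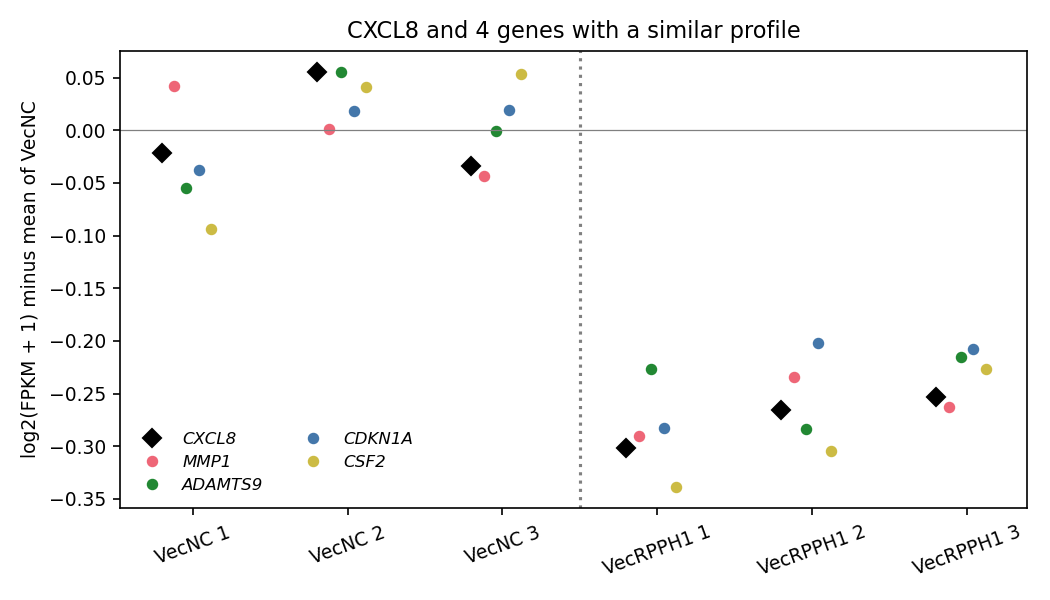
Difference of log2(FPKM + 1) from the VecNC mean in each of the 6 libraries for CXCL8 (black diamonds) and 4 of the 5 genes most like it (coloured circles). All 5 plotted genes lie within 0.1 of 0 in the VecNC libraries and below -0.2 in the VecRPPH1 libraries.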

How the data were processed

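RNA sequencing of 3 VecNC and 3 VecRPPH1 libraries of MDA-MB-231 cells was analysed. The values deposited by the authors were FPKM per gene and library; Trimmomatic, HISAT2, Cufflinks and GRCh38 are named in the submitters' processing notes, and versions and annotation release were not given in the sources used here. FPKM divides out depth and length, so fragments were recovered: 6 library totals, 17603126 to 18817269 fragments, made the values of 10909 of 10909 tested genes whole within 0.01 fragments plus a relative 3e-08. A gene whose fragments all share a factor would be returned divided by it. Tested genes had a median of 835 fragments.

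The main fit took log2(FPKM + 1) into limma 3.58.1 (R 4.3.3), with its trended variance option, group as the only term and two-sided p-values adjusted over all genes tested. Alternatives were a pseudocount of 0.1, no filter, a filter of 5 FPKM, the replicate number as a block, each library left out, median-of-ratios scaling, and limma-voom on recovered fragments with trimmed-mean scaling. Leaving out VecRPPH1 replicates 2 and 3 together was added after seeing the data. The fits and the recovery were tested on simulated data. The chemokine genes and lists were chosen with earlier results of these data known. Genes named besides the 9 were at most 3 per list with the smallest p, and those most like CXCL8, of which 1 is not reported here; CXCL6, the receptors, the marker genes, AREG and MTHFD2L were chosen after their values were seen. Mitochondrially encoded mRNAs, a list for RNA quality, were not analysed here. GENCODE 29 gave gene coordinates and RefSeq (GRCh38.p14) the promoter windows.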

Additional observations from a re-analysis of the deposited data

How the results depend on the processing

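CXCL8, CXCL1, CXCL2 and CXCL3 had lower means in VecRPPH1 and groups that did not overlap under every alternative run. Groups that do not overlap stay so when a library is left out or the filter, pseudocount or block is changed. Only median-of-ratios scaling and voom could have changed this separation. In each fit 5 of the 6 tested chemokine genes had lower means, except that CCL20 was left untested by the filter of 5 FPKM. CXCL8 passed the threshold by limma with a filter of 5 FPKM (log2 fold change -0.27, adjusted p 0.0317), without VecNC replicate 1 (-0.28, adjusted p 0.0444) and by voom (-0.28, adjusted p 0.000777); fewer genes are tested under the stricter filter, and otherwise the cause was not tested. Over all alternatives its adjusted p ranged from 0.000777 to 0.920, the latter with VecRPPH1 replicates 2 and 3 left out. With 1 library left out, the log2 fold change ranged from -0.29 to -0.25 for CXCL8, from -0.17 to -0.11 for CXCL1, from -0.40 to -0.24 for CXCL2, from -0.35 to -0.22 for CXCL3, from -0.20 to 0.0706 for CCL2 and from -0.0859 to 0.25 for CCL20. The signs of CCL2 (0.0706) and CCL20 (-0.0859) reversed without VecRPPH1 replicate 3. Over all genes, limma called 1 lower and 0 higher. The filter of 5 FPKM gave 6 lower and 2 higher, and voom 11 lower and 6 higher. With no filter, with the replicate block and with VecRPPH1 replicates 2 and 3 left out, 0 were lower. With 1 library left out, 0 to 7 were lower, the 7 without VecNC replicate 1, and 0 were higher. With both VecRPPH1 replicates left out, the lone library was assumed to vary like the controls, and CCL20 was not tested there either.

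The labels did not state whether libraries with the same replicate number were paired. Deviations from group means of same-numbered libraries correlated at 0.0566, 0.0180 and -0.104. Those of differently numbered libraries correlated at -0.170 to 0.199, so pairing cannot be told from these values. With the replicate number as a block, the log2 fold changes were -0.27 for CXCL8 (limma adjusted p 0.124), -0.13 for CXCL1, -0.34 for CXCL2, -0.29 for CXCL3, -0.08 for CCL2 and 0.08 for CCL20, and no chemokine gene was called. CXCL5, CXCL16, CCL5 and CCL20 rest on 6 to 36 fragments per library, so differences within their counting intervals were not detectable at this depth.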
